A study of Mus musculus with 64 samples.

Results

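The genes described here are mouse genes whose symbols start with Tex (testis expressed) or Spata (spermatogenesis associated) followed by a number, except 1 gene with such a symbol that was not analysed here. Their rows were taken by symbol from the RNA-Seq tables of all 3 mutant lines of the study, and they made up 37 of the 26385 genes listed, of which 18 were Tex genes and 19 were Spata genes. The rule reads symbols and no measured value. The study asked how loss of the nuclear ATPase MORC1 changes transcripts in the male germ line, and set this beside loss of DNMT3L, a cofactor of de novo DNA methylation, and of MIWI2 (gene Piwil4), a nuclear PIWI protein. The RNA-Seq data comprised 20 libraries of sorted germ cells and 27 of whole testis, 47 in all, each from 1 mouse.

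All germ cell libraries were of the Morc1 line. Germ cells were taken from Morc1 tg/tg and Morc1 tg/+ males at E16.5 (2 and 2 libraries), E18.5 (2 and 2), P2.5 (2 and 3) and P10.5 (3 and 4). The tg allele is an insertion of a tyrosinase transgene that removed exons of Morc1, kept on the FVB/N background. For the sorts up to P2.5 it was crossed to an Oct4-IRES-eGfp reporter of mixed background and eGFP-positive cells were collected. At P10.5 the sort instead took cells with low side scatter, high EPCAM and no H2-Kq, and the reporter cross is described only for the earlier sorts. Stage, sort method and genetic background thus cannot be told apart between P10.5 and the earlier stages. Whole testis of the Morc1 line was taken at P10.5 (3 Morc1 tg/tg, 2 Morc1 tg/+ and 1 wild type, with 1 Morc1 tg/+ and 1 wild type library of a preliminary batch) and at P14.5 (3 Morc1 tg/tg and 3 Morc1 tg/+). Whole testis of the other lines was taken at P10.5 from 3 Dnmt3l-/-, 3 Dnmt3l+/- and 3 wild-type mice and from 2 mice labelled Miwi2-/- and 2 Miwi2+/-. The strain of those lines is nowhere stated in the sources used here. Testis libraries were made from poly(A) RNA with the TruSeq v2 kit and germ cell libraries from total RNA depleted of ribosomal RNA with a NuGEN Ovation kit, so tissue and kit cannot be told apart.

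The Tex and Spata symbols are names of discovery and not of a family by descent, and the proteins act at different steps of male germ cell development. TEX11 and SPATA22 act in meiotic recombination, TEX15 in recombination and in piRNA-directed silencing, TEX14 in the bridges that join sister germ cells, TEX19.1 in the control of retrotransposons, and TEX101 is an anchored surface protein of germ cells that sperm fertility depends on. In the first wave of spermatogenesis the mouse testis holds spermatogonia and the earliest meiotic cells at P10.5 and gains later cells of meiotic prophase by P14.5.

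Reads counted on genes ran from 2413679 to 14918478 per germ cell library and from 22509570 to 42137954 per testis library, so low genes were measured less precisely in germ cells. Levels are given as the deposited RPKM, a read count scaled to gene length and to the mapped reads of the library, with the SD over libraries. Changes are log2 fold changes with the SE of edgeR's quasi-likelihood fit, called at a Benjamini-Hochberg adjusted p under 0.05 over all genes tested. Morc1 was lower in Morc1 tg/tg at every stage and in both tissues, from 9.72 against 44.5 RPKM at E16.5 to 2.26 in P10.5 testis against 6.37 in Morc1 tg/+, and all these comparisons but E18.5 (adjusted p = 0.139) passed the test. Dnmt3l stood at 0.0412 RPKM in Dnmt3l-/- testis against 0.508 in Dnmt3l+/-. Piwil4 was not lower in the libraries labelled mutant. Its mean was 11.1 RPKM in the 2 labelled Miwi2-/- and 6.83 in the 2 Miwi2+/- libraries (log2 fold change 0.69 ± 0.07, adjusted p = 0.000746). Morc1 tg/tg libraries kept Morc1 reads too, but at a lower level than their controls. The cause of the higher Piwil4 level was not tested. For Miwi2-/- testis the paper reports derepressed LINE elements and IAP-Ey retrotransposons. No direction is drawn from that label here. The sorted libraries held germ cell transcripts and few of Sertoli cells, whose 7 markers summed to between 12.7 and 49.6 RPKM in sorted libraries and between 681 and 1725 in testis. The 5 endothelial markers summed to 29.0 to 40.2 RPKM in E16.5 and E18.5 sorted libraries, within the range of testis (19.4 to 49.1), and to 2.73 to 4.85 at P10.5. The 4 blood markers summed to 32.9 and 34.7 RPKM in E16.5 Morc1 tg/tg against 5.65 and 18.6 in Morc1 tg/+, with 1 of 4 called higher, and the part of either list in the results before birth was not tested. In these bulk libraries fewer cells of a type and less RNA per cell cannot be told apart.

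In control libraries the 37 genes covered a wide range of levels. In the 11 control germ cell libraries, 24 genes had a mean of at least 1 RPKM and 12 of at least 10. In 14 control testis libraries (the preliminary batch left out), 25 genes reached 1 RPKM and 15 reached 10. The 5 highest in control germ cells were Tex15 (mean 89.8 RPKM), Tex10 (75.3), Spata5 (64.1), Tex13 (47.0) and Tex14 (41.0). Those in control testis were Tex101 (147), Tex19.1 (57.0), Spata5 (52.2), Tex10 (40.4) and Tex261 (33.9). These means pool stages and lines, and the order was not the same in each group. Tex101 was at 368 to 523 RPKM in the P14.5 controls and at 44.8 to 76.1 in the Dnmt3l line, where Tex19.1 averaged 67.6, and Tex15 was at 57.1 RPKM beside 57.9 for Tex10 in P10.5 germ cells. TEX10 and SPATA5 act in ribosome biogenesis, so the upper end of both orders mixed germ cell genes with genes that most cells use. Tex9 had no read in any of the 47 libraries. Of the 37 genes, 5 lie on the X chromosome (Tex11, Tex13, Tex13a, Tex16 and Tex28), which is 13.5% against 4.60% of all genes listed.

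**Figure D1:**
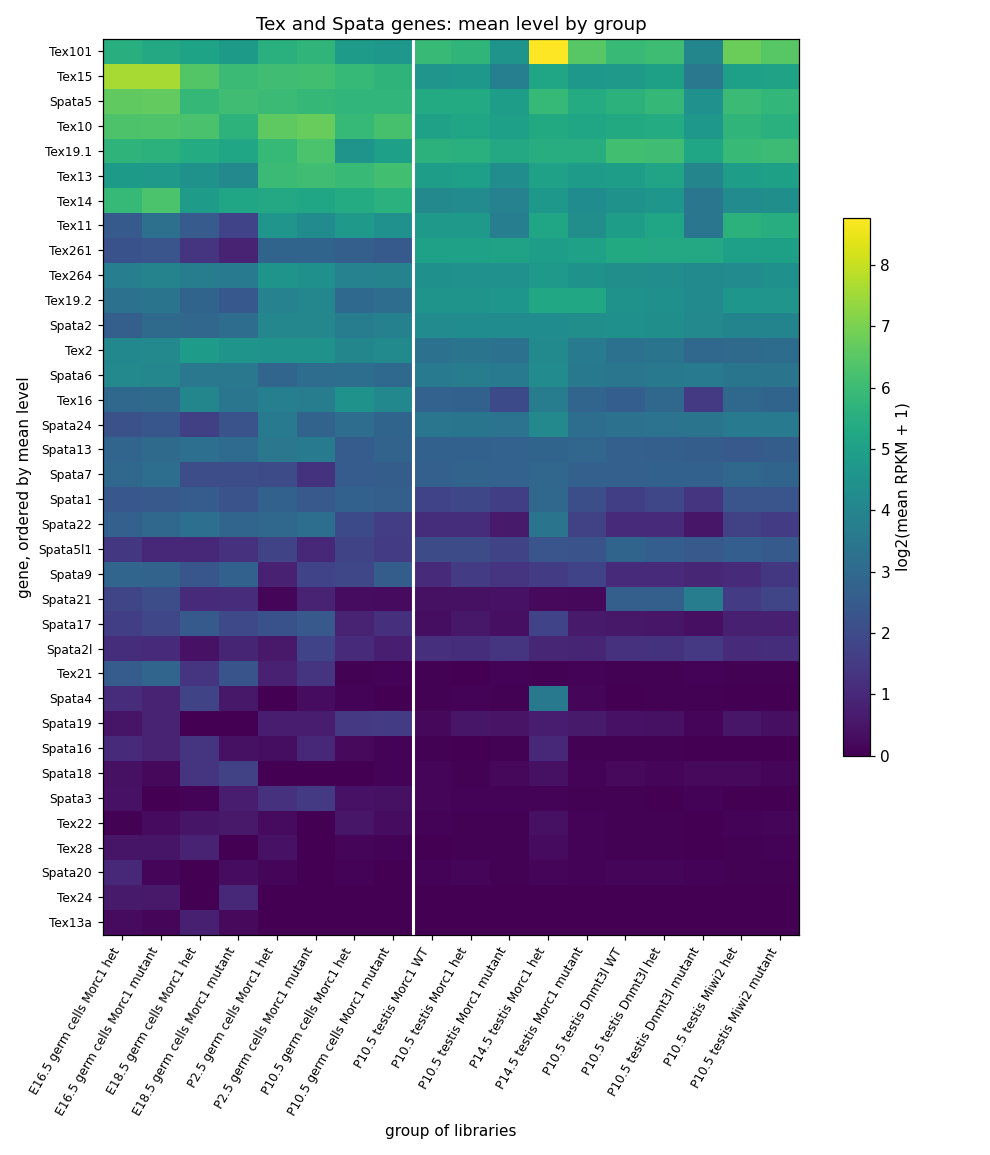
Mean level of 36 Tex and Spata genes (Tex9, with no read, left out) in each group, as log2(mean RPKM + 1), with germ cell groups left of the white line and testis groups right of it. Tex101 was brightest in P14.5 Morc1 tg/+ testis (435 RPKM), Tex15 in E16.5 germ cells (194 RPKM in Morc1 tg/+), and Spata4 was bright in P14.5 Morc1 tg/+ testis (10.8 RPKM) and dark in P14.5 Morc1 tg/tg testis (0.115 RPKM).

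Some values carry a limit of counting. The authors kept reads that mapped to 1 place, so any read shared by related genes (such as Tex19.1 and Tex19.2, or Tex13 and Tex13a) was lost. How many reads this touched was not measured. Of the 37 genes, 12 overlap another listed gene, among them Spata5 (with Nudt6), Tex10 (Invs), Spata22 (Olfr20), Spata1 (Dnase2b and Ctbs), Spata6 (Gm12960) and Spata2 (Rnf114), and Tex11, Tex14 and Tex2 contain small RNA genes. The methods name HTSeq's default parameters, under which reads are assigned by strand, and the TruSeq v2 kit does not mark strand.

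The genes placed here, chosen from those named in the results, lie apart from each other in the mm9 build of the files. Tex101 (ENSMUSG00000062773) is at chr7:25453031-25457069 on the minus strand, Tex11 (ENSMUSG00000009670) at chrX:98033987-98255006 on the minus strand, and Tex15 (ENSMUSG00000009628) at chr8:34627210-34696054 on the plus strand. Spata22 (ENSMUSG00000069825) is at chr11:73143243-73169415, Spata4 (ENSMUSG00000031518) at chr8:55686134-55695451, Spata16 (ENSMUSG00000039335) at chr3:26536542-26882134 and Spata21 (ENSMUSG00000045004) at chr4:140644248-140668675, all on the plus strand. Promoter sequences (250 bases before to 50 after the start, from RefSeq, build GRCm38.p6) were on hand for 29 of the 37 genes. Those of 5 genes are shown as examples: 4 of the 5 with the largest fitted fall in P14.5 Morc1 tg/tg testis (Spata4, Spata16, Tex101 and Spata22), and the single gene that rose in Dnmt3l-/- testis (Spata21). Spata4 and Spata16 passed the filter on low counts only through the Morc1 tg/+ libraries and so had to differ. The promoter of Spata17, which also fell, is not shown. Capitals mark the E-box CACGTG or CNCCTCAG, the motif of STRA8, a factor of meiotic entry, both searched on both strands.
Tex101, chr7:24672001-24672300, minus strand: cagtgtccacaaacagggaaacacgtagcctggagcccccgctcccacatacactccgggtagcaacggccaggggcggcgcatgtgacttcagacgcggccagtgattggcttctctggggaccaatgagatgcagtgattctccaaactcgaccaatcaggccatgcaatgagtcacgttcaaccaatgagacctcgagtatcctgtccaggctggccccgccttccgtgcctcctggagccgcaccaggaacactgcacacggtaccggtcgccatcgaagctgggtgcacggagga
Spata22, chr11:73329491-73329790, plus strand: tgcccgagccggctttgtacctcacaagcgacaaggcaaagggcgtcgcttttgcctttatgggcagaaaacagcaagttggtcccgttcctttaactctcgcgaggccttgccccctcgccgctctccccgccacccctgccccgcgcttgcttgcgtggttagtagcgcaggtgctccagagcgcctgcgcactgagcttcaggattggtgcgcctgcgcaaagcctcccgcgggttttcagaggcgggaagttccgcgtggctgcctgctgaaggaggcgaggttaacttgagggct
Spata4, chr8:54600531-54600830, plus strand: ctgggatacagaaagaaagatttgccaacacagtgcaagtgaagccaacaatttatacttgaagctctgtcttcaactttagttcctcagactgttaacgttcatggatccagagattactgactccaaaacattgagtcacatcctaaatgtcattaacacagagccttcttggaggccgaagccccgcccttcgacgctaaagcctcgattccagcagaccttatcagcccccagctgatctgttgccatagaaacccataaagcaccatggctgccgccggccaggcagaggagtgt
Spata16, chr3:26637381-26637680, plus strand: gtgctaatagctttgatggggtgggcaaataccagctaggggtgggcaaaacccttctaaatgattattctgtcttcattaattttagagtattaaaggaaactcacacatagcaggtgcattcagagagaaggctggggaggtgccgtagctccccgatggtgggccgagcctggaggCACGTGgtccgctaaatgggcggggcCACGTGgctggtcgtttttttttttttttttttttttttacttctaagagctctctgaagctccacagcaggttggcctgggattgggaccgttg
Spata21, chr4:141088095-141088394, plus strand: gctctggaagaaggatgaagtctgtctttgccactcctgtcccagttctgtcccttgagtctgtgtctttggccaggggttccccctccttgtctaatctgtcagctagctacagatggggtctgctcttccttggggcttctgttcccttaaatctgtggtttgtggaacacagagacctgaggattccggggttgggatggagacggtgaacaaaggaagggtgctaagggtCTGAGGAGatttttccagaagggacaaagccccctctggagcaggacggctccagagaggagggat

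The Spata16 promoter held CACGTG at 71 and 45 bases before the start, a motif found in 2349 of 32851 promoters (7.15%). Among the 34 promoters of the Tex and Spata genes, 2 held it, the other being that of Tex10. The CNCCTCAG letters of the Spata21 promoter, found there on the opposite strand, were present in 2609 of all promoters (7.94%) and also in that of Tex264. None of the 5 promoters held TGACGTCA, the cAMP response element, which 588 promoters (1.79%) held, among them that of Spata7. These are matches of letters in a window and describe no binding.

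Control germ cells (Morc1 tg/+) were compared from stage to stage. Tex15 stood at 179 and 210 RPKM in the 2 libraries at E16.5, at 81.0 and 89.7 at E18.5, at 44.8, 82.2 and 73.6 at P2.5, and between 54.5 and 60.9 at P10.5. Its E16.5 libraries lay above all later ones, and it fell from E16.5 to E18.5 (log2 fold change -1.15 ± 0.19, adjusted p = 0.000539). Tex14 fell over the same step, from 58.1 ± 8.4 to 27.6 ± 1.6 RPKM (n = 2 and 2, adjusted p = 0.000105), as did Spata5 (adjusted p = 0.000602), while X-linked Tex16 rose from 6.83 to 15.4 RPKM (adjusted p = 0.000209) together with Tex2. Thus 6 of 33 Tex and Spata genes tested passed from E16.5 to E18.5 (2 higher and 4 lower), a share close to the 18.7% of all genes tested (8.13% higher and the rest lower). The remaining gene, Tex261, was called lower (-1.24, adjusted p = 0.0227), a call lost without E16.5 Morc1 tg/+ replicate 1, without E16.5 replicate 2 and without E18.5 replicate 1 (adjusted p = 0.0629, 0.127 and 0.0731). Counts called in fits that left out a library are given in this text without the share of all genes called in the same fit. They are not read as particular to these genes.

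From E18.5 to P2.5, 6 genes rose and 8 fell of 33 tested, against 39.1% of all genes tested past the threshold (18.1% higher and 21% lower). Tex11 rose most clearly, from 5.00 and 4.55 RPKM at E18.5 to 20.3, 23.8 and 25.1 at P2.5 (log2 fold change 2.09 ± 0.19, adjusted p = 6.51e-07). Tex13, also X-linked, rose from 21.3 to 61.5 RPKM (adjusted p = 4.81e-06), and Spata2, which links the deubiquitinase CYLD to the linear ubiquitin ligase, from 6.45 to 15.7 (adjusted p = 0.000265). For each of these 3 genes the stages did not overlap. Spata18, a gene of mitochondrial quality control, and Spata4 had 45 and 35 reads over the 2 libraries at E18.5 and no read in the 3 libraries at P2.5, and both were called lower. These and Spata21 reached the filter on low counts in no P2.5 library, so their fall was favoured in advance and is not read. Of 6 genes below the filter throughout a stage, only these 3 were called. Setting the 6 aside leaves 6 higher and 5 lower of 27, where 19.3% of all genes so kept were higher and 20% lower. From P2.5 to P10.5, 4 rose and 6 fell of 33 tested, against 27.6% of all genes (13.4% higher and 14.2% lower). Of 8 genes below the filter on low counts throughout a stage, only Tex21 was called, lower and below it in every P10.5 library. Setting the 8 aside leaves 4 higher and 5 lower of 25, where 14.9% of all genes so kept were higher and 14.7% lower. Tex16 rose from 12.7 to 21.5 RPKM (adjusted p = 5.31e-05), and Tex19.1 fell from 57.5 ± 8.8 to 22.2 ± 3.6 (n = 3 and 4, adjusted p = 0.000185), as did Tex10, Spata13 and Spata22. RPKM ratios ran 0.17 above the fitted log2 changes at the median gene from E18.5 to P2.5 and 0.28 below them from P2.5 to P10.5, so small steps in RPKM between stages are not readable as such.

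**Figure D2:**
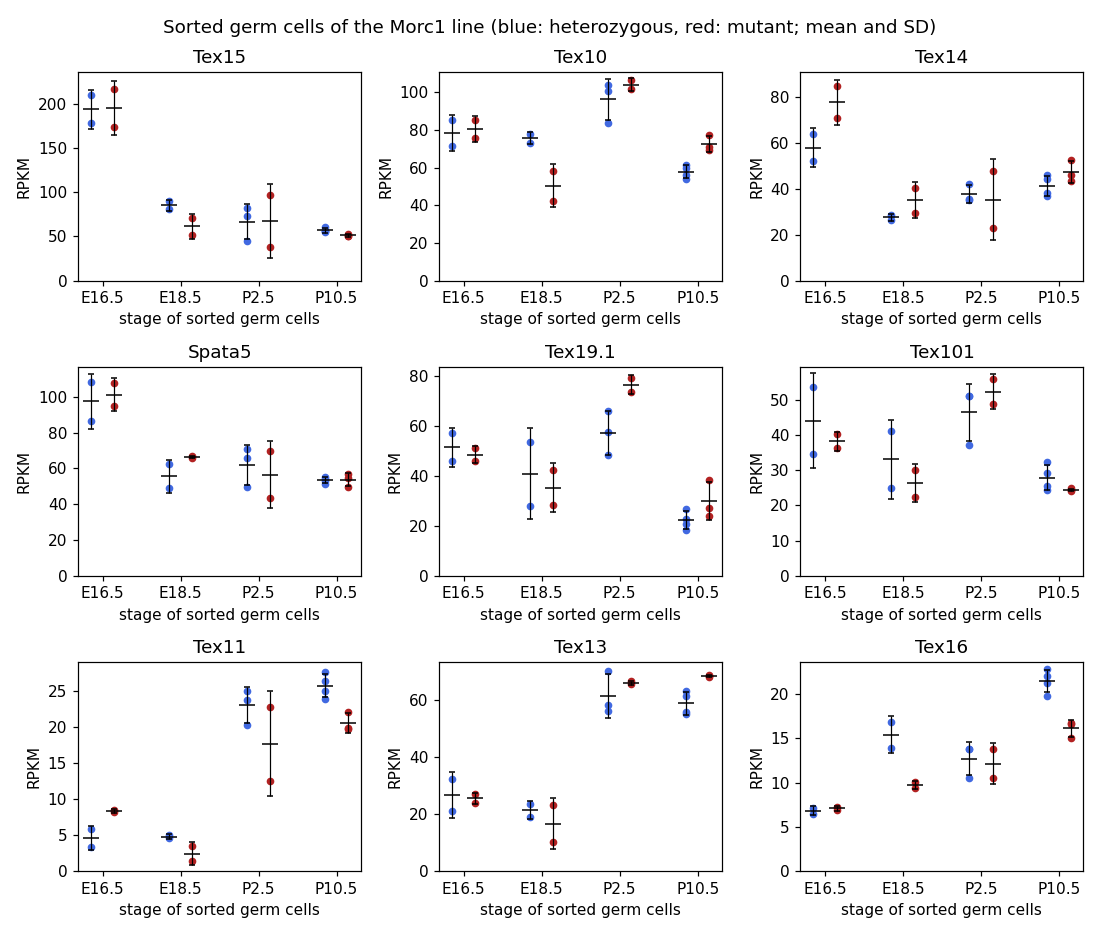
RPKM of 9 genes in every sorted germ cell library by stage (blue, Morc1 tg/+; red, Morc1 tg/tg; marks are the mean and SD). Tex15 was highest at E16.5, Tex11 and Tex13 stepped up between E18.5 and P2.5, and at P10.5 the Morc1 tg/tg libraries of Tex11 (19.7 to 22.1 RPKM) and Tex16 (15.1 to 16.7) lay below all Morc1 tg/+ libraries.

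Loss of MORC1 was followed in germ cells at the same stages. Before birth and at P2.5 no Tex or Spata gene passed the threshold, with 31, 28 and 27 tested at E16.5, E18.5 and P2.5, against 0.421%, 0.0416% and 0.0486% of all genes tested, and with 4, 2 and 0 at an unadjusted p under 0.05. DESeq2 called 1 at E16.5 (Tex14, adjusted p = 0.0264) and 1.1% of all genes. Tex11 was the nearest in edgeR at E16.5, at 8.19 and 8.53 RPKM in Morc1 tg/tg and 3.38 and 5.78 in Morc1 tg/+ (log2 fold change 0.80 ± 0.19, adjusted p = 0.0807). Without E16.5 Morc1 tg/tg replicate 1, without replicate 2, or without Morc1 tg/+ replicate 2, its adjusted p was 0.0266, 0.0415 and 0.0133, and the count of called genes was 1, 3 and 1. At E18.5 Tex10 and Tex15 had log2 fold changes of -0.49 and -0.39 (adjusted p = 0.702 and 0.774), and Tex15 alone was called without Morc1 tg/+ replicate 1 (adjusted p = 0.0313).

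At P10.5, sorted Morc1 tg/tg germ cells had less Tex16, Tex11, Tex15 and Spata22 and more Tex10 and Spata9 than Morc1 tg/+ germ cells, all by small factors. These were 6 of 25 tested (2 higher and 4 lower), a share above the 12.2% of all genes tested that were called, 6.43% higher and 5.79% lower. Tex16 stood at 16.7, 16.7 and 15.1 RPKM in Morc1 tg/tg and at 22.8, 22.1, 19.9 and 21.3 in Morc1 tg/+ (log2 fold change -0.49 ± 0.08, adjusted p = 0.000238). Tex11 stood at 19.8, 19.7 and 22.1 against 26.4, 25.0, 27.7 and 23.9 RPKM (-0.40 ± 0.09, adjusted p = 0.00248). Groups did not overlap for either gene, and both calls held without each library in turn. The Morc1 effect on Tex11 was more positive at E16.5 than at P10.5 (difference of log2 fold changes 1.20 ± 0.18, adjusted p = 0.000485), the only one of 32 tested to do so, where 1.71% of all genes differed and 0.822% in this direction. Tex15 was at 51.1 ± 1.5 against 57.1 ± 2.7 RPKM (-0.24 ± 0.07, adjusted p = 0.0183). Spata22, whose protein works with MEIOB on single-stranded DNA in recombination, was at 2.03 ± 0.26 against 2.87 ± 0.35 RPKM (-0.58 ± 0.19, adjusted p = 0.0407). Tex10 rose from 57.9 ± 3.6 to 72.6 ± 4.0 RPKM (0.25 ± 0.07, adjusted p = 0.0204) and Spata9 from 2.61 ± 0.65 to 5.01 ± 0.79 (0.86 ± 0.27, adjusted p = 0.0392), with n = 3 and 4 for each. These weaker calls lay near the threshold. Where a library was left out, the call was lost for Spata22 in 6 of 7 fits (all but that without Morc1 tg/+ replicate 1, with log2 fold changes of -0.50 to -0.66 and adjusted p from 0.051 to 0.126), for Spata9 (0.68 to 0.86) and Tex10 (0.22 to 0.25) in 4 each, and for Tex15 without Morc1 tg/tg replicate 2 and without Morc1 tg/+ replicate 1. Only 2 genes were called without Morc1 tg/tg replicate 2 and 3 without Morc1 tg/+ replicate 3. Tex101 (-0.27, adjusted p = 0.134), Tex14 (0.11), Tex13 (0.14), Tex19.1 (0.35, adjusted p = 0.0654) and Spata5 (-0.07) did not pass. Tex19.1 was called higher with no filter on low counts (adjusted p = 0.0111), without Morc1 tg/tg replicate 1 (0.0166) and without Morc1 tg/+ replicate 1 (0.0469). Beside these values, markers of undifferentiated spermatogonia were higher in the same Morc1 tg/tg libraries (5 of 9 called higher, summed level 195 to 240 against 150 to 162 RPKM) and 3 of 6 markers of differentiating spermatogonia were lower and 1 higher (122 to 137 against 153 to 181 RPKM). Sertoli markers had a median log2 fold change of -0.79, with 2 of 7 lower and sums of 19.9, 20.4 and 38.2 against 30.1 to 49.6 RPKM, and 2 of 7 tested germ cell markers were higher. The part of cell composition in the gene changes was not tested.

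In whole testis at P10.5, Tex11, Tex101, Tex15, Spata22, Tex13, Tex16, Spata5, Tex14 and Tex19.1 were lower in Morc1 tg/tg. Of 25 Tex and Spata genes tested, 9 were lower and none was higher, where 15.3% of all genes tested were called and 9.26% were lower. The median log2 fold change was -0.17 over the 25 and 0.01 over all genes. Tex11 stood at 12.8, 12.5 and 12.3 RPKM in Morc1 tg/tg and at 26.3 and 25.1 in Morc1 tg/+ and 25.8 in wild type (-1.02 ± 0.05, adjusted p = 1.8e-06). Tex101 stood at 25.2, 20.5 and 21.7 RPKM against 53.4, 51.5 and 59.1 (-1.27 ± 0.08, adjusted p = 7.12e-06), and Tex15 at 14.0, 12.5 and 12.3 against 25.2, 23.3 and 22.7 (-0.86 ± 0.06, adjusted p = 2.08e-05). In each of these 3 genes every Morc1 tg/tg library lay below every control, by a gap wider than the range within either group. Spata22, low at this age, was at 0.682, 0.550 and 0.433 RPKM against 1.16, 1.26 and 1.21 (-1.13 ± 0.16, adjusted p = 0.00131).

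The other 5 genes that fell in P10.5 Morc1 tg/tg testis were Tex13 (18.6 against 29.5 RPKM, adjusted p = 3.55e-05), Tex16 (2.94 against 5.62, adjusted p = 8.6e-05), Spata5 (29.0 against 40.3, adjusted p = 0.000192), Tex14 (13.8 against 17.3, adjusted p = 0.00751) and Tex19.1 (38.5 against 47.3, adjusted p = 0.00766). Without Morc1 tg/tg replicate 3 the last pair missed the threshold (adjusted p = 0.054 for Tex14 and 0.0502 for Tex19.1). Tex10 (-0.16, adjusted p = 0.0961) and Spata1 (-0.33, adjusted p = 0.0627) did not pass. Levels of the 8 germ cell markers moved with these genes: 5 of 8 were lower in Morc1 tg/tg, and their sum was 221 to 255 RPKM against 345 to 358 in the controls, while the Sertoli sum was 1202 to 1371 against 1144 to 1222. Of 6 differentiating spermatogonia markers 5 were lower (median -0.57), and of 9 undifferentiated ones 0 passed (median 0.09). Of the somatic lists, 2 of 7 Sertoli, 2 of 5 endothelial, 2 of 5 macrophage, 1 of 6 Leydig and 1 of 5 peritubular markers were higher. The part of these markers in the gene changes was not tested. All 4 Tex and Spata genes that fell in sorted germ cells at this age also fell in testis, which is 44.4% of the 9 lower in testis. Over all genes, 232 of the 811 lower in germ cells (28.6%) were also lower in testis, where 1404 were lower in all. One of the 4, Spata22, was the least stable call in germ cells.

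The log2 fold change in Morc1 tg/tg was more negative in testis than in sorted germ cells for 9 of 26 genes, by a test of the difference itself over the P10.5 libraries (6.81% of all genes tested differed, 3.15% in this direction). The difference was 0.98 on the log2 scale for Tex101 (adjusted p = 0.000423), 0.76 for Tex13 (adjusted p = 9.51e-05), 0.60 for Tex15 (adjusted p = 0.00108) and 0.60 for Tex11 (adjusted p = 0.00267). Tex13 was at 68.2, 68.8 and 68.4 RPKM in Morc1 tg/tg germ cells and at 55.2 to 63.4 in Morc1 tg/+ germ cells, the opposite order to testis. Markers differed with them: 6 of 7 tested germ cell markers (median 0.58) and 9 of 21 genes of meiotic prophase in the same direction, and 3 of 7 Sertoli markers in the opposite one. Their part was not tested, and kit and tissue cannot be told apart in this comparison. Its count was 5 without P10.5 testis Morc1 tg/tg replicate 2, without the wild-type library or without Morc1 tg/+ replicate 2, and 4 without Morc1 tg/tg replicate 3.

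Between P10.5 and P14.5 many of these genes rose in Morc1 tg/+ testis. Of 29 tested, 17 rose and none fell, where 25.4% of all genes rose and 51.4% changed, and the median was 0.46 against -0.01 over all genes. Of 4 genes that reached the filter on low counts at only 1 age, 3 were called. These were Spata4, Spata16 and Spata18, which reached it only at P14.5 and so had to be higher there. Setting the 4 aside leaves 14 higher of 25, where 24.1% of all genes that reached it at both ages rose. Tex101 rose from 53.4 and 51.5 RPKM to 415, 368 and 523 (log2 fold change 3.03 ± 0.15, adjusted p = 8.44e-06). Spata22 rose from 1.16 and 1.26 to 9.62, 7.31 and 11.4 RPKM (2.95 ± 0.20, adjusted p = 1.44e-05). Spata4 had 4 reads over the 2 libraries at P10.5 and 333, 175 and 463 reads in those at P14.5, and Spata16, whose protein is needed to form the acrosome, had 2 reads over P10.5 and 67, 29 and 78 reads at P14.5. Both genes were thus near the detection floor at the younger age and measurable in every library at the older one. Tex16 (1.11), Spata1 (1.26), Spata17 (2.32), Tex2 (0.87), Tex19.2 (0.68), Tex15 (0.55), Spata6 (0.52), Spata5 (0.50), Tex14 (0.46), Tex11 (0.40) and Tex264 (0.31) rose as well. Spata18 rose from 5 to 51 reads over the groups (adjusted p = 0.0201), a call lost without P10.5 Morc1 tg/+ replicate 3 (adjusted p = 0.118), and Spata24 rose by 0.77. Cell type markers moved over the same step: 6 of 8 germ cell markers, 20 of 21 genes of meiotic prophase and 11 of 12 of pachytene were higher, and 1 germ cell marker was lower. Of 7 Sertoli markers, 6 were lower and 1 was higher, and their sum was 1144 to 1184 RPKM at P10.5 and 872 to 891 at P14.5. Their part in the rise was not tested.

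In P14.5 Morc1 tg/tg testis, 16 of 28 tested genes were lower and none was higher, where 34.8% of all genes tested were called and 20.1% were lower. The median log2 fold change was -0.35 against 0.01 over all genes. Spata4 and Spata16 passed the filter on low counts only through the Morc1 tg/+ libraries and so had to differ, which leaves 14 lower of 26, where 19.5% of all genes that reached the filter in both groups were lower. Tex101 stood at 96.1, 89.6 and 78.3 RPKM in Morc1 tg/tg and at 415, 368 and 523 in Morc1 tg/+ (-2.30 ± 0.14, adjusted p = 5.05e-05), so its mutant libraries lay above the P10.5 controls and far below the P14.5 ones. Spata22 stood at 2.48, 2.42 and 2.14 RPKM against 9.62, 7.31 and 11.4 (-2.0 ± 0.17, adjusted p = 0.000123). Spata4 had 3, 1 and 6 reads in Morc1 tg/tg, or 0.115 RPKM on average, against 10.8 RPKM in Morc1 tg/+ (fitted log2 fold change -6.52 ± 0.62). Spata16 had 3, 2 and 3 reads, or 0.0472 against 1.01 RPKM (-4.35 ± 0.58). For Spata4 and Spata16 the Morc1 tg/tg libraries at P14.5 were near 0, while the controls ranged from 5.30 to 16.1 RPKM for Spata4 and from 0.459 to 1.42 for Spata16.

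Another 12 genes fell at P14.5. Tex11 was at 21.6, 17.8 and 18.7 RPKM against 35.6, 35.9 and 31.4 (-0.82 ± 0.07, adjusted p = 0.000156), Tex15 at 24.5 against 35.9 (-0.54, adjusted p = 0.000142) and Tex16 at 6.20 against 12.2 (-0.96, adjusted p = 0.000186). Spata1 (3.31 against 6.58 RPKM, adjusted p = 0.000487) and Spata17 (0.566 against 2.36, adjusted p = 0.000991) fell too. Spata6, needed for the connecting piece of the sperm tail, was at 10.6 against 17.6 RPKM (-0.73, adjusted p = 0.0005). Spata5 (-0.48, adjusted p = 0.000457), Tex2 (-0.57, adjusted p = 0.00215) and Tex14 (-0.42, adjusted p = 0.00476) fell by less. Spata24, named after its values were seen, was at 8.00 against 16.4 RPKM (-1.02, adjusted p = 0.00269). Tex264, an endoplasmic reticulum autophagy receptor, and Tex10 were called with small changes (-0.22 and -0.18, adjusted p = 0.0253 and 0.0356), each in 1 of 6 fits that left out a library, and DESeq2 did not call Tex10 (adjusted p = 0.056). Tex19.1 was at 43.3 ± 1.1 and 43.3 ± 3.1 RPKM in the groups (log2 fold change 0.01 ± 0.06), and Tex19.2 (-0.00), Spata2 (0.08), Spata7, a gene of photoreceptor cilia (-0.21), and Tex13 (-0.18, adjusted p = 0.056) did not pass.

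**Figure D3:**
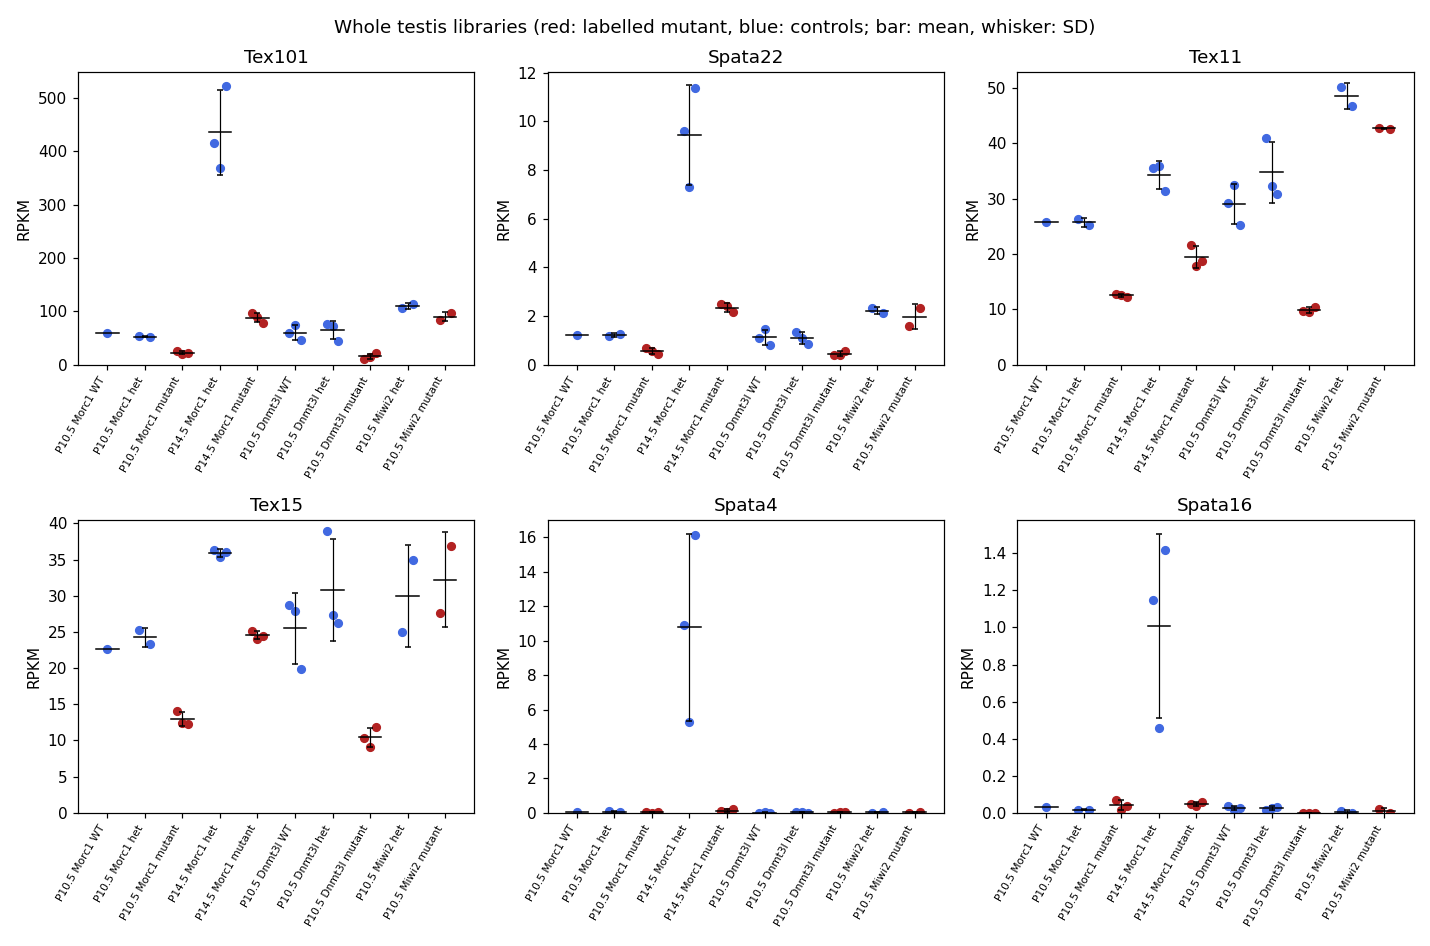
RPKM of 6 genes in every testis library of the 3 lines (red, libraries labelled mutant; blue, controls; lines and whiskers are the mean and SD). Tex101, Spata22, Spata4 and Spata16 were high in the 3 P14.5 Morc1 tg/+ libraries, and in the Dnmt3l line Tex101, Spata22, Tex11 and Tex15 were lower in all 3 mutant libraries than in any control.

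The effect of Morc1 loss differed between the ages for 8 of 29 genes tested, against 6.16% of all genes, 0.915% with a higher and 5.25% with a lower value at P14.5. In this test the P10.5 controls were Morc1 tg/+ alone, without the wild-type library that the P10.5 effects above include. Without genes below the filter on low counts in a whole group, Spata16 and Spata18 among them, the count was 6 of 25 against 6.1%. The effect was stronger at P14.5 for Tex101 (difference -1.10 ± 0.18, adjusted p = 0.00387) and Spata6 (-0.64, adjusted p = 0.00686), and weaker for Tex13 (0.47, adjusted p = 0.00663) and Tex15 (0.34, adjusted p = 0.0307). Where a library was left out, the Tex15 difference missed the threshold in 5 fits (adjusted p from 0.0533 to 0.112) and that of Spata6 in 1 (0.0705, without P10.5 Morc1 tg/+ replicate 2). The difference for Spata4, which had 0 to 3 reads a library at P10.5, is not read. The count ranged from 3 to 10 when libraries were left out, and fell to 3 without P10.5 Morc1 tg/tg replicate 3 or Morc1 tg/+ replicate 2, to 4 without P10.5 Morc1 tg/+ replicate 3 or without P14.5 Morc1 tg/tg replicates 2 or 3 or Morc1 tg/+ replicates 1 or 3, and to 5 without P10.5 Morc1 tg/tg replicates 1 or 2. At P14.5 the germ cell markers again moved with the genes, with 6 of 8 lower and a sum of 348 to 386 against 584 to 682 RPKM, and the Sertoli sum was 1125 to 1276 against 872 to 891. Of 6 differentiating spermatogonia markers 3 were lower, while of 9 undifferentiated ones 3 were higher and 1 was lower. Of 11 tested genes of pachytene, the late part of meiotic prophase, 10 were lower, with a summed level of 55.8 to 62.7 RPKM over 12 listed genes against 220 to 428. In the test between ages, the effect was lower at P14.5 for 8 of 12 pachytene genes, 10 of 21 meiotic prophase genes and 2 of 8 germ cell markers. It was higher for 3 of 6 differentiating and 1 of 9 undifferentiated spermatogonia markers and 1 of 7 Sertoli markers. The part of these markers in the gene changes was not tested. The P14.5 Morc1 tg/+ libraries enter both the age and the genotype comparison, so their values are not independent.

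In Dnmt3l-/- testis at P10.5, 13 of 26 tested Tex and Spata genes were lower and 1 was higher. Since 53.9% of all genes tested were called in this comparison, 24.9% higher and 29% lower, the 14 called of 26 were at the background in number, while the 13 lower were above the share lower over all genes. The median log2 fold change was -0.34 against -0.00. Tex11 stood at 9.72, 9.46 and 10.4 RPKM in Dnmt3l-/- and between 25.3 and 41.0 in the 6 controls (-1.64 ± 0.12, adjusted p = 1.08e-06). Tex101 stood at 10.6, 13.9 and 21.2 RPKM against 44.8 to 76.1 (-1.98 ± 0.23, adjusted p = 2.42e-05). Spata5 was at 19.4, 20.2 and 21.8 against 44.9 to 61.1 RPKM (-1.30 ± 0.09, adjusted p = 5.73e-07). All 14 calls held without each library in turn.

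The remaining falls in Dnmt3l-/- testis ran from Tex16 (1.78 against 5.90 RPKM, -1.68, adjusted p = 1.43e-05) and Tex15 (10.4 against 28.2, -1.39, adjusted p = 3.18e-05) to Spata2 (16.4 against 19.9, -0.23, adjusted p = 0.00325). Between them were Spata22 (0.446 against 1.11 RPKM, -1.26), Tex14 (9.81 against 22.5, -1.15), Tex13 (14.9 against 31.4, -1.03), Tex19.1 (35.5 against 67.6, -0.88), Tex10 (24.6 against 40.3, -0.66), Spata1 (-0.58) and Tex2 (-0.41). Spata1 was not called against the wild-type controls alone (adjusted p = 0.0657). Spata21 moved the other way, at 12.6, 14.3 and 9.07 RPKM in Dnmt3l-/- against 4.16, 5.91 and 5.84 in wild type and 4.22, 3.77 and 7.72 in Dnmt3l+/- (1.23 ± 0.21, adjusted p = 0.000382). Its level also differed by line among controls: 0.279 to 0.340 RPKM in the P10.5 Morc1 line and 1.74 and 2.17 in the Miwi2 line, and line, strain and batch cannot be told apart. No Tex or Spata gene was called between Dnmt3l+/- and wild type by edgeR (25 tested, 1 at an unadjusted p under 0.05), where 0.00651% of all genes were. The 8 germ cell markers were all lower in Dnmt3l-/- (summed level 167 to 195 against 433 to 562 RPKM), and the Sertoli sum was 1641 to 1725 against 928 to 1192. Of 9 undifferentiated spermatogonia markers 5 were lower and 3 higher, and of 6 differentiating ones 5 were lower and 1 higher. The part of these markers in the gene changes was not tested.

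The 9 genes lower in P10.5 Morc1 tg/tg testis were all among the 13 lower in Dnmt3l-/- testis, which is 69.2% of the latter, and these comparisons share no library. Over all genes, 1288 of the 1404 genes lower in P10.5 Morc1 tg/tg testis (91.7%) were also lower in Dnmt3l-/- testis, which is 28.4% of the 4539 lower there. The falls were smaller in Morc1 tg/tg, and the difference of the effects passed for 6 of 27 genes (17.6% of all genes, and 9.45% in this direction): Spata5 (0.80, adjusted p = 0.00021), Tex14 (0.79, adjusted p = 0.000407), Tex16 (0.72), Tex11 (0.57), Tex19.1 (0.55) and Tex10 (0.46). The count was 11 without Dnmt3l-/- replicate 3. All 8 germ cell markers (median 0.88) and 7 of 21 genes of meiotic prophase differed in the same direction and 5 of 7 Sertoli markers in the opposite one, and their part was not tested. For Tex101 the difference of 0.66 did not pass (adjusted p = 0.117), with falls of 1.27 in one line and 1.98 in the other.

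**Figure D4:**
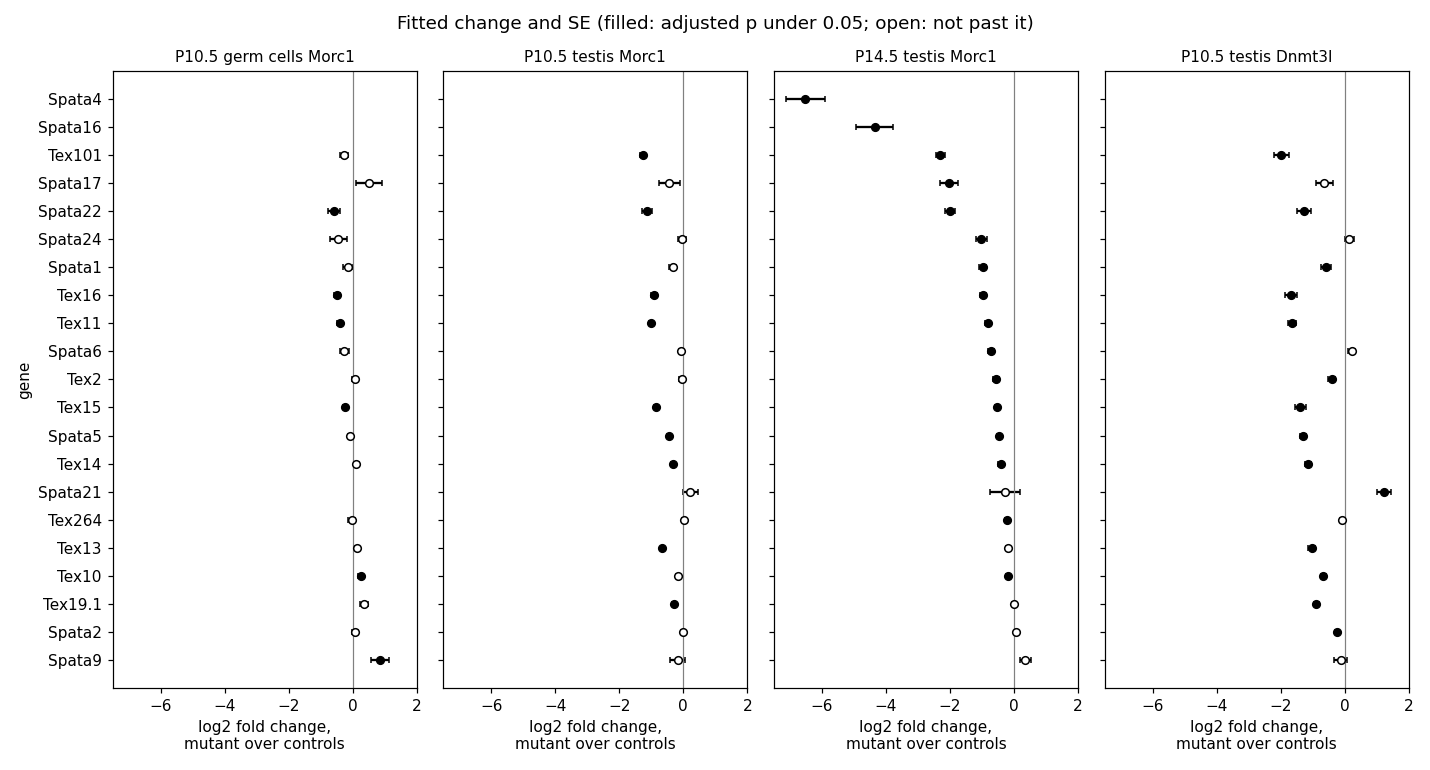
Fitted log2 fold change with its SE (mutant over controls) of each of the 21 Tex and Spata genes called in any of 4 comparisons, with filled points past an adjusted p of 0.05 and open points not past it, and no point where the gene was not tested. Filled points lie within 1 of 0 in P10.5 germ cells and reach further left in testis. Spata4 (-6.52) and Spata16 (-4.35) have a point only at P14.5. These 2 genes passed the filter on low counts only through the Morc1 tg/+ libraries and so had to differ. Spata21 (1.23) is the only filled point right of 0 in testis.

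In testis labelled Miwi2-/-, edgeR called no Tex or Spata gene of 27 tested, where 1.23% of all genes were called, and 6 had an unadjusted p under 0.05. With the replicate numbers as a block it called some of them, with 28.1% of all genes, as counted in the closing section. Deviations correlated at 0.53 by replicate number over 2 pairs, and the labels do not say whether the numbers mark pairs. Tex101 was nearest, at 83.5 and 95.9 RPKM in libraries labelled Miwi2-/- and 106 and 114 in Miwi2+/- (-0.31 ± 0.08, adjusted p = 0.0896), and DESeq2 called it alone (adjusted p = 0.025) with 4.1% of all genes. Its adjusted p in edgeR was 0.0284 without Miwi2-/- replicate 2 and 0.00936 without Miwi2+/- replicate 1. Tex11 (42.8 and 42.6 against 50.1 and 46.8 RPKM, adjusted p = 0.154), Spata22 (-0.19) and Tex15 (0.09) did not pass. Germ cell marker sums overlapped between the labels (470 to 478 against 475 to 478 RPKM).

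P10.5 Morc1 tg/+ germ cells were also set against Morc1 tg/+ testis of the same age. Kit and tissue cannot be told apart here, so the comparison does not locate where these genes are transcribed. Of 26 tested, 15 were higher in germ cells and 3 lower, where 77.7% of all genes tested differed, 37.2% higher and 40.5% lower. Of 3 genes that reached the filter on low counts in 1 tissue only, Spata17 and Spata19 were called. Setting the 3 aside gave 13 higher and 3 lower of 23, where 76.5% of all genes so kept were called, 34.6% higher and 41.9% lower. Tex16 (21.5 against 5.56 RPKM, log2 fold change 2.63 ± 0.11), Spata22 (2.87 against 1.21, 1.93), Tex15 (57.1 against 24.3, 1.91), Tex14 (41.5 against 17.7, 1.91), Tex13 (1.67), Tex10 (1.41) and Tex2 (1.41) were higher. Tex261 (5.28 against 31.5 RPKM, -1.90), Tex19.2 (7.0 against 22.4, -1.0) and Tex19.1 (22.2 against 46.8, -0.40) were lower. RPKM ratios lay 0.68 below the fitted changes at the median gene, so Spata13 and Spata7 were called higher although their RPKM was lower, the Spata7 call being lost under DESeq2 (adjusted p = 0.0926) and in 4 fits that left out a library, and Tex11 was called higher (0.68) at 25.8 against 25.7 RPKM. With Morc1 tg/tg libraries in place of Morc1 tg/+, Tex19.1 turned to 0.18 (adjusted p = 0.21).

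The genes were also grouped by role. Of 9 tested genes of early germ cells and meiosis (Tex11, Tex13, Tex14, Tex15, Tex16, Tex19.1, Tex19.2, Tex101 and Spata22), 4 were lower in P10.5 Morc1 tg/tg germ cells, 8 in P10.5 Morc1 tg/tg testis, 6 at P14.5 and 8 in Dnmt3l-/- testis, with median log2 fold changes of -0.24, -0.86, -0.54 and -1.26, where 5.79%, 9.26%, 20.1% and 29% of all genes were lower. Of 4 to 7 tested genes of spermatids and sperm, none was lower in Morc1 tg/tg testis at P10.5 (median -0.06) or in Dnmt3l-/- testis (0.18), and 4 were lower at P14.5. Among those 4, Spata4 and Spata16 are those that reached the filter only through their controls, and nothing is read from the contrast between the ages. Of 10 or 11 tested broadly expressed genes, 1 was lower in P10.5 Morc1 tg/tg testis (Spata5), 4 at P14.5 and 4 in Dnmt3l-/- testis, with medians of 0.01, -0.13 and -0.08, and the 4 of 11 in Dnmt3l-/- testis were near the 29% of all genes lower there. For the 21 listed genes of meiotic prophase outside this set, 18, 20 and 20 were lower in these 3 comparisons (medians -0.90, -1.61 and -1.40), and 8 in sorted P10.5 germ cells (-0.26).

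Genes known to act together with Tex or Spata genes were read from the same fits. Of 12 tested, 7 were lower in P10.5 Morc1 tg/tg testis, 10 at P14.5 and 8 in Dnmt3l-/- testis, against 9.26%, 20.1% and 29% of all genes. The TEX11 partner Sycp2, a gene of the synaptonemal complex, had log2 fold changes of -0.98, -2.01 and -1.51. Kif23 and Cep55, whose proteins bind TEX14 at the bridge, fell by 0.54 and 0.48 on the log2 scale in P10.5 Morc1 tg/tg testis. In sorted P10.5 germ cells 1 of 12 was higher and 3 were lower (6.43% and 5.79% of all genes). The 3 lower were Cyld (-0.78, adjusted p = 0.000268), Hfm1 (-0.83, adjusted p = 0.0161) and Sycp2 (-0.26, adjusted p = 0.0254). Kif23 at -0.20 (adjusted p = 0.125) and Cep55 at 0.02 (0.926) did not pass. Piwil2, a PIWI gene, was higher there (0.24, adjusted p = 0.0446) and lower in P10.5 testis (-0.24, adjusted p = 0.035). Ubr2, the ubiquitin ligase that binds TEX19.1, did not pass in any of the 3 testis comparisons (0.05, 0.03 and -0.12). The crossover helicase Hfm1 fell by 1.33 at P10.5 and by 2.88 at P14.5 in Morc1 tg/tg testis.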

How the data were processed

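RNA-Seq of 47 libraries was analysed. Per the labels and the methods, the authors trimmed reads to 50 bases, removed ribosomal reads, mapped the rest to mm9 with Bowtie (unique hits, up to 2 mismatches) and counted them on genes with HTSeq, and the deposited tables hold whole-number read counts and RPKM values per gene. Tool versions are not given in the sources used here. Groups came from the sample labels. Counts were tested with edgeR 4.0.16 (TMM scaling, filterByExpr, quasi-likelihood test, Benjamini-Hochberg over all genes tested, threshold 0.05) in R 4.3.3, after a check on simulated data. Each genotype comparison used the libraries of its stage and tissue, and the preliminary batch entered only an alternative. RPKM values gave levels, with mean and SD. Genes with no library at the filter's minimum (10 reads at the median library size) in a whole group were also set aside from counts. Differences between effects were tested as interaction terms. Of the tests, 2 (Morc1 effect in germ cells against testis, Dnmt3l+/- against wild type) were added after the data were seen. DESeq2 1.42.0, other filters and scaling, a replicate block, other controls and leaving out each library were alternatives. Replicate libraries differed beyond sampling noise, with a lowest chi-square per gene of 4.52 over 38 pairs. The numbers of replicates paired no samples by the rule used (every correlation of deviations over 0.1, with at least 3 pairs). Each library is 1 mouse.

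The genes and lists were chosen with earlier results of these data known. Genes named with values were, per genotype comparison, those called with the smallest adjusted p (up to 12 in each direction), those with a well known role, those of the highest level, and those of the lists. Others, such as those of the stage comparisons, Tex2 in the Dnmt3l line, and Spata24, Tex264 and Tex10 at P14.5, were named after their values were seen or for a known role. Promoters came from RefSeq (GRCm38.p6), and no coordinate was converted from mm9. Small RNA, bisulfite and chromatin data were not used here.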

Additional observations from a re-analysis of the deposited data

Results flagged for a closer look

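The effect of Morc1 loss in testis differed between P14.5 and P10.5 for 8 genes (difference of log2 fold changes, P14.5 minus P10.5, edgeR adjusted p): Spata16 -5.53 (0.0324), Spata18 -4.02 (0.0355), Tex101 -1.10 (0.00387), Spata24 -1.01 (0.0247), Spata6 -0.64 (0.00686), Tex2 -0.49 (0.0467), Tex15 0.34 (0.0307) and Tex13 0.47 (0.00663). Spata16 and Spata18 had few or no reads at P10.5, their fitted differences depend on the prior count, and nothing is read from them. Where a library was left out, the Spata24 and Tex2 differences missed the threshold in 8 and 9 fits, and that of Tex2 did so under RLE scaling as well (adjusted p = 0.0566).

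The effect differed between Morc1 tg/tg and Dnmt3l-/- testis at P10.5 for 6 genes, with Morc1 minus Dnmt3l differences of 0.80 for Spata5 (adjusted p = 0.00021), 0.79 for Tex14 (0.000407), 0.72 for Tex16 (0.0435), 0.57 for Tex11 (0.0192), 0.55 for Tex19.1 (0.00123) and 0.46 for Tex10 (0.00517). Line and batch cannot be told apart from the mutation here.

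Between sorted germ cells and testis at P10.5 the Morc1 effect differed (germ cells minus testis) by 0.98 for Tex101 (adjusted p = 0.000423), 0.76 for Tex13 (9.51e-05), 0.61 for Tex19.1 (0.0386), 0.60 for Tex15 (0.00108), 0.60 for Tex11 (0.00267), 0.41 for Tex14 (0.0453), 0.40 for Tex16 (0.0391), 0.38 for Tex10 (0.0207) and 0.37 for Spata5 (0.0181).

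Within germ cells, the Morc1 effect on Tex11 differed between E16.5 and P10.5 by 1.20 ± 0.18 (adjusted p = 0.000485), and passed without each of the 11 libraries in turn. Tex11 was higher in both E16.5 Morc1 tg/tg libraries than in the Morc1 tg/+ ones, short of the threshold at that stage, and lower in all 3 at P10.5. The 2 stages were sorted by different markers, and the reporter cross is described only for the earlier one. Stage, sort and genetic background cannot be told apart.

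One library lay apart in its group: Spata18 had 1 read in 1 of 4 P10.5 Morc1 tg/+ germ cell libraries and none in the others, so its gap was 1 of the range. It was 1 of 16 groups of values examined, and chance gives about 1 in 20.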

How the results depend on the processing

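Library size limited low genes most, with as few as 2413679 counted reads in a germ cell library. For the named genes, alternatives other than leaving out a library kept direction and side of the threshold in 1248 cases, lost the call in 20, gained it in 24 and reversed in 2: with Morc1 tg/tg in place of Morc1 tg/+ libraries, the germ cell against testis change was 0.67 for Tex101 and 0.18 for Tex19.1. Leaving out 1 library gave 2341, 160, 43 and no reversal. At E16.5, where 0 genes were called, DESeq2 called 1, no filter 3 and the replicate block 1 (1.1%, 0.844% and 1.05% of all genes). In the Miwi2 line, where 0 were called, DESeq2 called 1 (4.1% of all genes) and the replicate block 9 of 27 (28.1%). From E18.5 to P2.5 the replicate block called 9 in place of 14 (30.2% of all genes), without Spata18 and Spata4 (adjusted p = 0.0866 and 0.095). The labels do not say whether replicate numbers mark pairs. By the rule used the numbers paired no samples (correlations from -0.63 to 0.53), but the rule needs at least 3 pairs. It could not be met in the Miwi2 line, which has 2 pairs and the correlation of 0.53. The block called 9, 16 and 14 genes in Morc1 testis at P10.5 and P14.5 and in Dnmt3l testis (7.91%, 33% and 50.9% of all genes). The cause of these shifts was not tested. The counts below, from fits that left out a library, stand without the share of all genes called in the same fit. They are not read as particular to these genes.

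Leaving out 1 library, the count of called genes ranged from 0 to 3 at E16.5, 0 to 1 at E18.5, 0 to 0 at P2.5 and 2 to 6 at P10.5 in germ cells, and from 7 to 9, 14 to 17, 14 to 20 and 0 to 1 in P10.5 Morc1, P14.5 Morc1, Dnmt3l and Miwi2 testis. It ranged from 5 to 13, 11 to 18 and 8 to 15 over the control germ cell steps, 16 to 17 over the control testis step, 14 to 19 for germ cells against testis and 0 to 0 for Dnmt3l+/- against wild type. For the differences of effects it ranged from 3 to 10 between ages, 4 to 11 between lines, 1 to 1 between E16.5 and P10.5, and 4 to 9 between tissues.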
